A study of Rattus norvegicus with 12 samples.

Results

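The subunits of AMPA and kainate receptors were followed in the hippocampus of rats bred for high or low exploratory activity. The family has 9 genes, Gria1 to Gria4 for AMPA receptors and Grik1 to Grik5 for kainate receptors. They were found by Entrez gene number among 9962 genes on the array, and 8 were present: Gria1 (50592), Gria2 (29627), Gria3 (29628), Gria4 (29629), Grik1 (29559), Grik3 (298521), Grik4 (24406) and Grik5 (24407). Grik2 was not analysed here. All 8 stayed in the tests, since no gene was removed for low signal.

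The arrays held RNA of the whole hippocampus, 1 adult male rat per array, labelled P102-107 for age in days after birth and generation F4 of selective breeding. Bred High Responder (bHR) rats come from parents that moved a lot in an unfamiliar field, and bred Low Responder (bLR) rats from parents that moved little, with 6 rats per line. The labels name no treatment for either line. The submitters marked bHR replicate 1 and bLR replicate 5 as having failed quality control, so each line is compared with 5 arrays. Values are log2 expression made by the authors with RMA, and every difference is bHR minus bLR on that scale. Precision rests on the small number of arrays in each line.

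AMPA and kainate receptors are ion channels of 4 subunits that open when glutamate binds. AMPA receptors carry most of the fast excitatory current at hippocampal synapses, and the insertion or removal of AMPA receptors underlies lasting changes in synaptic strength there. Kainate receptors act more slowly, at mossy fibre synapses onto pyramidal cells of field CA3 and on interneurons, both before and after the synapse. Which subunits assemble sets how fast a channel closes and whether it lets calcium through.

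The tissue label was read against marker genes. Neuronal Snap25 lay at 11.68 in bHR and 11.70 in bLR, above 99.9% of genes. Among 4 measured neuronal markers, 3 had the lower mean in bHR and 1 the higher. Rbfox3 was lowered most, at 7.29 in bHR against 7.48 in bLR, and Stmn2 was higher, at 9.40 against 9.33. The adjusted test was passed by 0 of these 4, beside 0% of all genes. Prox1, which marks dentate granule cells, lay at 7.22 in bHR and 7.42 in bLR. Wfs1, which marks pyramidal cells of field CA1, lay at 7.16 in both lines, with an SD of 0.13 in bHR and 0.55 in bLR. Of 6 measured markers of granule and pyramidal neurons, 5 had the lower mean in bHR, beside 50.4% of all genes with a higher one. Dsp had the higher mean in bHR, 5.39 against 5.28 in bLR. The adjusted test was passed by 0 of the 6, beside 0% of all genes. RNA of the choroid plexus, which borders the hippocampus, varied between arrays: the mean level of 8 choroid markers ran from 5.37 to 6.38 in bHR and from 5.20 to 6.04 in bLR. It leaned to bHR, with a higher mean there for 7 of the 8 markers and a median difference of 0.16, and 0 of them passed the adjusted test. Among them Ttr averaged 9.44 in bHR and 7.53 in bLR. In bulk tissue fewer cells of a type and less RNA per cell cannot be told apart. Signal from the 5' end of control transcripts was lost most deeply on bHR replicate 6 and on bLR replicates 2 and 3, where the 5' minus 3' value of the dap control RNA was -1.36, -1.54 and -1.82, against -0.42 to -0.072 on the other 7 arrays. These 3 are called the 5'-depleted arrays.

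The subunits kept a nearly fixed order of signal on the 10 arrays. Gria2 stood first on all 10 arrays with a mean of 10.04, above 98.7% of genes. It was followed by Gria3 (6.41), Gria1 (6.13), Grik5 (5.93), Grik4 (5.79), Grik3 (5.06), Gria4 (4.76) and Grik1 (4.64). Grik1 was the lowest of the 8 on all 10 arrays, and Grik3 and Gria4 held the same places on each. The neighbours that changed places were Gria3 and Gria1, in this order on 9 arrays and 0.28 ± 0.24 apart (SD of the within-array difference, n = 10), Gria1 and Grik5, in order on 8 arrays and 0.19 ± 0.24 apart, and Grik5 and Grik4, in order on 8 arrays and 0.15 ± 0.14 apart. This is an order of array signal, not of transcript number: probes of different genes bind with different strength, so the distance of Gria2 from Gria1 cannot be read as a ratio of their RNA. Gria4 and Grik1 lay above only 21.7% and 14.8% of genes, a range in which low expression and background cannot be told apart here.

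No AMPA or kainate subunit passed the test between the lines. By limma, 0 of the 8 passed an adjusted p of 0.05 over all genes, where 0% of the 9962 genes passed; at an unadjusted p under 0.05 there were again 0 of 8, beside 2.94% of all genes. The mean was higher in bHR for 5 subunits and lower for 3, beside 50.4% of all genes with a higher mean in bHR. The differences ran from -0.049 for Gria2 to 0.086 for Grik3, with a median of 0.038 for the 8 and 0.00078 for all genes. The lines overlapped for all 8, and they were separate for 0.291% of all genes. The 95% confidence intervals bound the differences on a linear scale: over the 8 genes they reached from 0.866-fold (Gria3) to 1.24-fold (Gria1) of the bLR level.

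**Figure D1:**
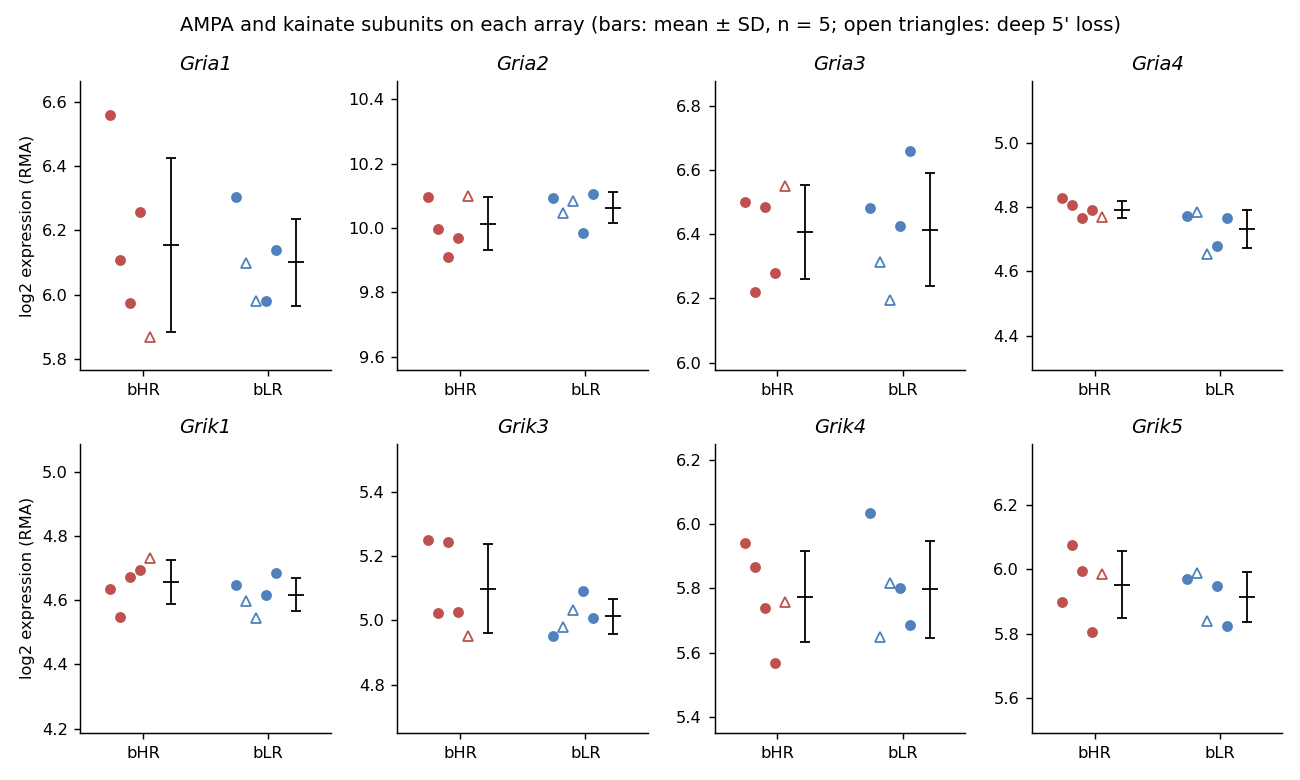
Log2 expression (vertical axes, each spanning the same distance) of the 8 subunits on the 5 bHR and 5 bLR arrays that passed; black bars give the mean and SD, and open triangles are the 5'-depleted arrays. The lines overlap in every panel, and over all 10 arrays Gria1 is spread most widely, from 5.87 to 6.56 in bHR and from 5.98 to 6.31 in bLR.

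Gria1 encodes GluA1, the subunit whose delivery to synapses accompanies potentiation in field CA1. Its level was 6.56, 6.11, 5.97, 6.26 and 5.87 on bHR replicates 2 to 6, against 6.31, 6.10, 5.98, 5.98 and 6.14 on bLR replicates 1 to 4 and 6. The highest and the lowest of the 10 values both came from bHR, on replicates 2 and 6, and the bLR values lay between them. The means were 6.15 ± 0.27 in bHR and 6.10 ± 0.13 in bLR (n = 5 each, SD), a difference of 0.053 (SE 0.12, limma adjusted p = 0.992). Gria1 was the most variable of the 8 subunits, with an SD of 0.20 over the 10 arrays, wider than that of 91.4% of genes. Its sign depended on 1 array: without bHR replicate 2 the difference was -0.049. It was 0.0064 once the 5' loss of beta-actin entered the fit as a covariate and 0.16 once the level of the choroid marker Ttr did, and adjusted p was 0.986 or above in both.

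Gria2 encodes GluA2, the subunit whose edited form makes AMPA receptors nearly impermeable to calcium. Its level was 10.10, 9.997, 9.91, 9.97 and 10.10 on bHR replicates 2 to 6, against 10.09, 10.05, 10.09, 9.99 and 10.11 on bLR replicates 1 to 4 and 6. All 10 values fell within 0.20 of each other, with 3 bHR values inside the bLR range and 2 below it. The means were 10.01 ± 0.083 in bHR and 10.06 ± 0.049 in bLR (n = 5 each, SD), a difference of -0.049 (SE 0.047, limma adjusted p = 0.992). The interval reached from 0.900-fold to 1.04-fold of the bLR level. With Ttr as a covariate the difference was -0.014, and leaving out bHR replicate 4 gave -0.023. Leaving out bHR replicate 6 gave -0.070, and leaving out the 5'-depleted arrays gave -0.069.

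Gria3, an X-linked gene for GluA3, which pairs with GluA2 in many receptors, had nearly the same mean in both lines. It read 6.50, 6.22, 6.48, 6.28 and 6.55 on bHR replicates 2 to 6, against 6.48, 6.31, 6.19, 6.42 and 6.66 on bLR replicates 1 to 4 and 6. Both ends of the range were bLR arrays, and bHR lay inside it. The difference was -0.0082 (SE 0.091), narrower than that of 89.1% of genes, with means of 6.41 ± 0.15 in bHR and 6.41 ± 0.18 in bLR (n = 5 each, SD; limma adjusted p = 0.992). The value rested on the choice of arrays: it was -0.15 without the 5'-depleted arrays, among them the lowest bLR and the highest bHR array, and -0.063 without bLR replicate 3 alone. Adjusted p stayed at 0.546 or above in every alternative run.

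Gria4 encodes GluA4, a fast subunit typical of interneurons that contain parvalbumin. Its values were 4.83, 4.81, 4.77, 4.79 and 4.77 on bHR replicates 2 to 6, against 4.77, 4.78, 4.66, 4.68 and 4.77 on bLR replicates 1 to 4 and 6. The 3 highest values were bHR arrays and the 2 lowest were bLR arrays, but the lowest bHR value, on replicate 4, lay below 2 of the bLR values. The means were 4.79 ± 0.026 in bHR and 4.73 ± 0.059 in bLR (n = 5 each, SD), a difference of 0.062 (SE 0.039, limma unadjusted p = 0.140, adjusted p = 0.992). This was the smallest p among the 8, reached at a low signal. With 1 array left out the difference ran from 0.043 to 0.075, and without the 5'-depleted arrays it was 0.060. It was 0.0043 when the failed arrays, where Gria4 read above every passing array, were added. The parvalbumin gene itself, Pvalb, differed by 0.029 (SE 0.082).

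Among kainate subunits, Grik1 encodes GluK1, found mostly in interneurons of the rat hippocampus. It read 4.64, 4.55, 4.67, 4.69 and 4.73 on bHR replicates 2 to 6, against 4.65, 4.60, 4.54, 4.62 and 4.68 on bLR replicates 1 to 4 and 6. The 2 highest values were bHR arrays and the lowest was a bLR array. The difference was 0.038 (SE 0.045, limma adjusted p = 0.992), with means of 4.66 ± 0.070 in bHR and 4.62 ± 0.053 in bLR (n = 5 each, SD). It was -0.012 without the 5'-depleted arrays, 2 of which held the lowest bLR values and 1 the highest bHR value. Leaving out bLR replicate 3 alone gave 0.020, and leaving out bHR replicate 3 gave 0.065.

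Grik3 encodes GluK3, a kainate subunit with low affinity for glutamate that takes part in receptors on nerve endings. Its values were 5.25, 5.02, 5.24, 5.03 and 4.95 on bHR replicates 2 to 6, against 4.95, 4.98, 5.03, 5.09 and 5.01 on bLR replicates 1 to 4 and 6. On bHR replicates 2 and 4 it stood above every bLR array, and on the other 3 bHR arrays it fell among or just below them. The difference of 0.086 (SE 0.064, limma adjusted p = 0.992) was the widest of the 8 subunits, yet 20.3% of all genes differed more. The means were 5.10 ± 0.14 in bHR and 5.01 ± 0.054 in bLR (n = 5 each, SD). Without bHR replicate 2 the difference was 0.049, and with all 12 arrays it was 0.14.

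Grik4 and Grik5 encode GluK4 and GluK5, the high-affinity subunits that form channels only together with GluK1, GluK2 or GluK3. Grik4, known for its strong expression in field CA3, read 5.94, 5.87, 5.74, 5.57 and 5.76 on bHR replicates 2 to 6, against 6.03, 5.65, 5.82, 5.80 and 5.69 on bLR replicates 1 to 4 and 6. Grik5, expressed widely in the brain, read 5.90, 6.08, 5.99, 5.81 and 5.99 on bHR replicates 2 to 6, against 5.97, 5.99, 5.84, 5.95 and 5.82 on bLR replicates 1 to 4 and 6. For Grik4 the highest value was a bLR array and the lowest a bHR array, whereas for Grik5 both ends were bHR arrays. Grik4 averaged 5.77 ± 0.14 in bHR and 5.80 ± 0.15 in bLR (n = 5 each, SD), a difference of -0.023 (SE 0.084, limma adjusted p = 0.992). Grik5 averaged 5.95 ± 0.10 in bHR and 5.91 ± 0.076 in bLR (n = 5 each, SD), a difference of 0.038 (SE 0.057, limma adjusted p = 0.992). The Grik5 difference was 0.0074 when bHR replicate 3 was left out and 0.075 when bHR replicate 5 was. The Grik4 difference was 0.069 with Ttr as a covariate, and it was 0.036 when bLR replicate 1 was left out and -0.065 when bHR replicate 2 was. Within bHR the 3 lowest Grik4 values came from the 3 arrays with the highest Ttr levels, replicates 4, 5 and 6, where Ttr read 10.79, 11.06 and 10.80. In bLR the lowest Grik4 value, 5.65 on replicate 2, came with the highest Ttr level, 10.16. The highest, 6.03 on replicate 1, came with the lowest Ttr level, 5.34. The order between them was not kept: replicate 6, with Ttr at 6.77, read 5.69, whereas replicate 4, with Ttr at 9.84, read 5.80. Centred within line, Grik4 and Ttr had a Pearson r of -0.73 over the 10 arrays. Gria1 had -0.598 and Gria2 -0.592, and the rest lay between -0.188 and 0.312. The cause of this likeness was not tested.

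**Figure D2:**
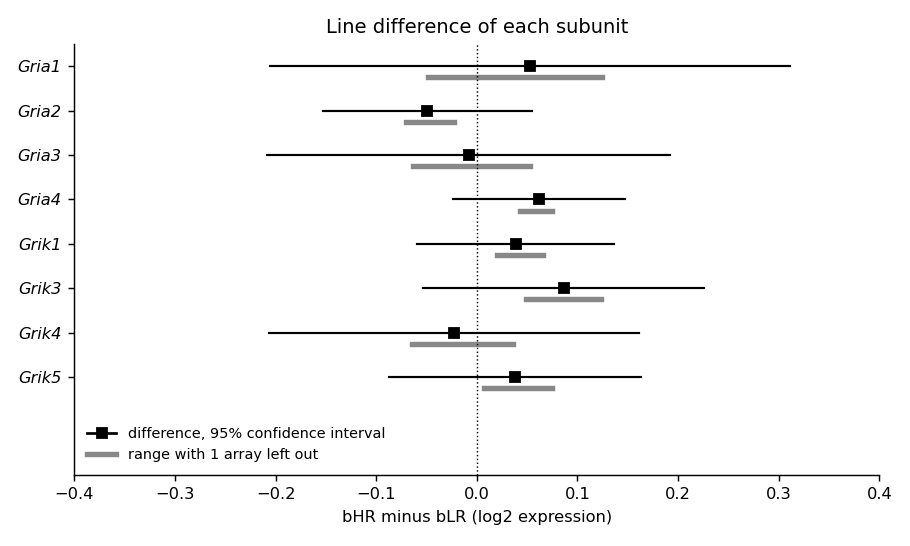
Difference between bHR and bLR in log2 expression (horizontal axis) for each subunit, with its 95% confidence interval in black and, in grey, the range of the difference when 1 of the 10 arrays is left out. All 8 intervals cross 0; the grey range crosses 0 for Gria1, Gria3 and Grik4.

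Receptor make-up was examined as ratios of subunits within an array, since a ratio cancels any shift that both genes share. Each AMPA subunit was set against Gria2 and each kainate subunit against Grik5, which gave 6 ratios, tested by two-sided exact permutation tests with Benjamini-Hochberg adjustment over the 6. A log2 ratio has no meaning as a count of molecules, but its difference between the lines shows unequal change in the signal of the 2 genes. Gria4 and Grik1 lay where low expression and background cannot be told apart, whereas Gria2 stood above 98.7% of genes. In ratios with Gria4 or Grik1 a shared change of RNA need not cancel. The Gria4 ratio came closest to a difference: on bHR replicates 2 to 6 it was -5.27, -5.19, -5.14, -5.18 and -5.33, against -5.32, -5.26, -5.43, -5.31 and -5.34 on bLR replicates 1 to 4 and 6. Of the 5 bHR arrays, 3 lay above every bLR array, and replicate 6 was the third lowest of all 10. The ratio averaged -5.22 ± 0.076 in bHR and -5.33 ± 0.062 in bLR, a difference of 0.11 (n = 5 each, SD; exact permutation p = 0.0556, adjusted p = 0.333, where 0.00794 is the smallest p that 5 against 5 allows).

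The ratios of Gria1 and Gria3 to Gria2 did not separate the lines either. The Gria1 ratio averaged -3.86 ± 0.26 in bHR and -3.96 ± 0.11 in bLR, a difference of 0.10 (n = 5 each, SD; exact permutation p = 0.437, adjusted p = 0.781). The Gria3 ratio averaged -3.61 ± 0.13 in bHR and -3.65 ± 0.17 in bLR, a difference of 0.041 (n = 5 each, SD; exact permutation p = 0.651, adjusted p = 0.781). Without bHR replicate 2 the Gria1 ratio differed by 0.021, and without bHR replicate 6 by 0.19.

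Among the kainate ratios, Grik1 against Grik5 differed by 9.3e-05, with -1.30 ± 0.15 in bHR and -1.30 ± 0.094 in bLR (n = 5 each, SD; exact permutation p = 1, adjusted p = 1). Grik3 against Grik5 differed by 0.048 (exact permutation p = 0.579, n = 5 each, adjusted p = 0.781), with -0.85 ± 0.18 in bHR and -0.90 ± 0.10 in bLR. Grik4 against Grik5 differed by -0.061 (exact permutation p = 0.50, n = 5 each, adjusted p = 0.781), with -0.18 ± 0.12 in bHR and -0.12 ± 0.15 in bLR. The lines overlapped for all 6 ratios.

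**Figure D3:**
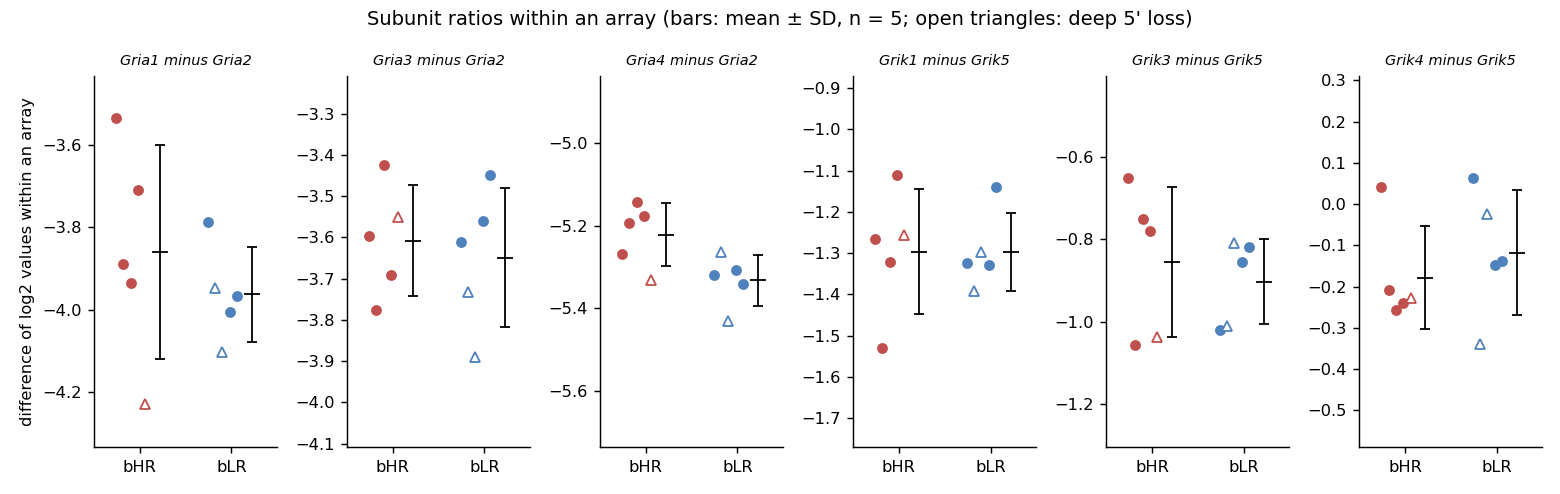
Difference of log2 values between a subunit and Gria2 or Grik5 within each array (vertical axes, each spanning the same distance), for 5 bHR and 5 bLR arrays, with black bars for the mean and SD and open triangles for the 5'-depleted arrays. The lines overlap in all 6 panels; for Gria4 against Gria2, 3 bHR arrays stand above all bLR arrays.

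Rats of 1 line also differ in how much they move, and the labels give a locomotor score for each rat. Within lines, 0 of the 8 subunits had a slope on the score that passed an adjusted p of 0.05 by limma, where 0% of all genes passed. At an unadjusted p under 0.05 there were 0 of 8, beside 4.12% of all genes. The slope was above 0 for 5 subunits and below 0 for 3, beside 41.3% of all genes above 0. Grik3 had the smallest p, with a slope of -0.078 log2 units per 100 beam breaks (SE 0.036, unadjusted p = 0.0558, limma adjusted p = 0.989). Its direction within lines was opposite to its difference between them, where bHR, the line with the higher scores, had the higher mean. For Gria3, Gria1, Grik1, Gria4 and Gria2 the slopes were 0.085, 0.047, 0.046, 0.037 and 0.031 log2 units per 100 beam breaks, and for Grik4 and Grik5 they were -0.049 and -0.012. Several of these changed in size, though not in sign, when 1 array was left out. Without bHR replicate 4 the slope was 0.019 for Gria1 and 0.016 for Gria2, without bLR replicate 6 it was 0.037 for Gria3, and without bHR replicate 5 it was -0.023 for Grik4. At the other end the slope reached 0.10 for Gria1 (without bHR replicate 6), 0.058 for Gria2 (without bLR replicate 3) and -0.083 for Grik4 (without bLR replicate 1). The Gria3 slope was 0.055 with the beta-actin covariate and 0.015 when the 5'-depleted arrays were omitted, and all alternatives kept adjusted p at 0.622 or above for the 8 subunits.

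AMPA receptors reach the synapse with auxiliary subunits that travel with them and change their gating. Of 17 genes for auxiliary and assembly proteins 13 were measured. In bHR the mean was higher for 6 and lower for 7, beside 50.4% of all genes with a higher one. The adjusted test was passed by 0 of the 13, beside 0% of all genes. The median difference was -0.038, beside 0.00078 for all genes. Unadjusted p was under 0.05 for 2 of the 13, beside 2.94% of all genes. Both had the lower mean in bHR, the side on which 1.84% of all genes had such a p. Cnih2, a cornichon protein that escorts AMPA receptors and slows their closing, had 9.81, 9.75, 9.65, 9.45 and 9.77 on bHR replicates 2 to 6, against 9.88, 10.17, 10.08, 9.86 and 9.81 on bLR replicates 1 to 4 and 6. Every bHR array lay below every bLR array, by as little as 0.0036 between bHR replicate 2 and bLR replicate 6, and the 2 highest values came from bLR replicates 2 and 3, which had lost 5' signal. The difference was -0.27 (SE 0.085, limma unadjusted p = 0.0081, adjusted p = 0.992). It was -0.21 with the beta-actin covariate and -0.18 without the 5'-depleted arrays. With all 12 arrays it was -0.48, and without bLR replicate 6 it was -0.31. Whether 5' loss bears on the Cnih2 difference was not tested. Cnih2 was the only one of the 13 genes without overlap between the lines, a state found for 0.291% of all genes.

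Cpt1c, a protein of the endoplasmic reticulum that binds GluA1, was at 7.41, 7.34, 7.37, 7.27 and 7.19 on bHR replicates 2 to 6, against 7.59, 7.61, 7.62, 7.40 and 7.37 on bLR replicates 1 to 4 and 6. Replicates 1, 2 and 3 of bLR stood above all bHR arrays, and bLR replicates 4 and 6 lay among the bHR values. The difference was -0.20 (SE 0.064, limma unadjusted p = 0.0095, adjusted p = 0.992). It was -0.10 without the 5'-depleted arrays and -0.24 without bLR replicate 6. Of the 5'-depleted arrays, bLR replicates 2 and 3 had the highest Cpt1c values and bHR replicate 6 the lowest. Prrt1, an AMPA receptor-associated membrane protein, differed by -0.26 (SE 0.16). The difference was -0.11 with the beta-actin covariate, -0.36 with all 12 arrays and -0.34 without bLR replicate 1. The highest Prrt1 values, 9.71 and 9.71, came from bLR replicates 2 and 3. Whether 5' loss bears on the Cpt1c and Prrt1 differences was not tested. Cacng5, a relative of stargazin, differed by 0.092 (SE 0.050) at a low signal. The difference was 0.056 when bHR replicate 5 was left out and 0.12 when bHR replicate 6 was. Stargazin itself, Cacng2, which anchors AMPA receptors to the postsynaptic scaffold, was chosen after its values were seen and differed by -0.066 (SE 0.10).

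The genes that move, cluster and edit AMPA receptors were counted in the same way. Of 15 listed genes 14 were measured, 7 with a higher and 7 with a lower mean in bHR, beside 50.4% of all genes with a higher one. The adjusted test was passed by 0 of the 14, beside 0% of all genes, and 1 of the 14 had an unadjusted p under 0.05, beside 2.94% of all genes. The median difference was -0.0020. Nptx1, a secreted pentraxin that gathers AMPA receptors at synapses, had 9.85, 9.98, 9.29, 9.18 and 9.90 on bHR replicates 2 to 6, against 9.83, 10.46, 10.65, 9.80 and 9.76 on bLR replicates 1 to 4 and 6. The lines overlapped, with bHR replicates 4 and 5 lowest and bLR replicates 2 and 3 highest. The difference was -0.46 (SE 0.21, limma adjusted p = 0.992). It was -0.27 with the beta-actin covariate and -0.23 when the 5'-depleted arrays were omitted. With all 12 arrays it was -0.57, and without bLR replicate 6 it was -0.55. Whether 5' loss bears on the Nptx1 difference was not tested. Akap5, which anchors kinases beside AMPA receptors, had the smallest unadjusted p of the list, 0.0017 by limma (adjusted p = 0.992). It averaged 4.55 ± 0.080 in bHR and 4.75 ± 0.064 in bLR (n = 5 each, SD), above only 15.7% of genes. The difference was -0.20 (SE 0.049), and it ran from -0.24 to -0.18 with 1 array left out. The lines overlapped, with 4.69 on bHR replicate 3 and 4.67 on bLR replicate 1. Grip1, a scaffold that binds GluA2 and GluA3, differed by 0.10 (SE 0.065), and by 0.063 to 0.14 with 1 array left out. Abhd6, a lipase that limits surface AMPA receptors, differed by 0.085 (SE 0.062), and by 0.032 to 0.12 with 1 array left out. For both genes the smallest value came without bHR replicate 6. Of 5 listed partners of kainate receptors, 0 were measured.

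**Figure D4:**
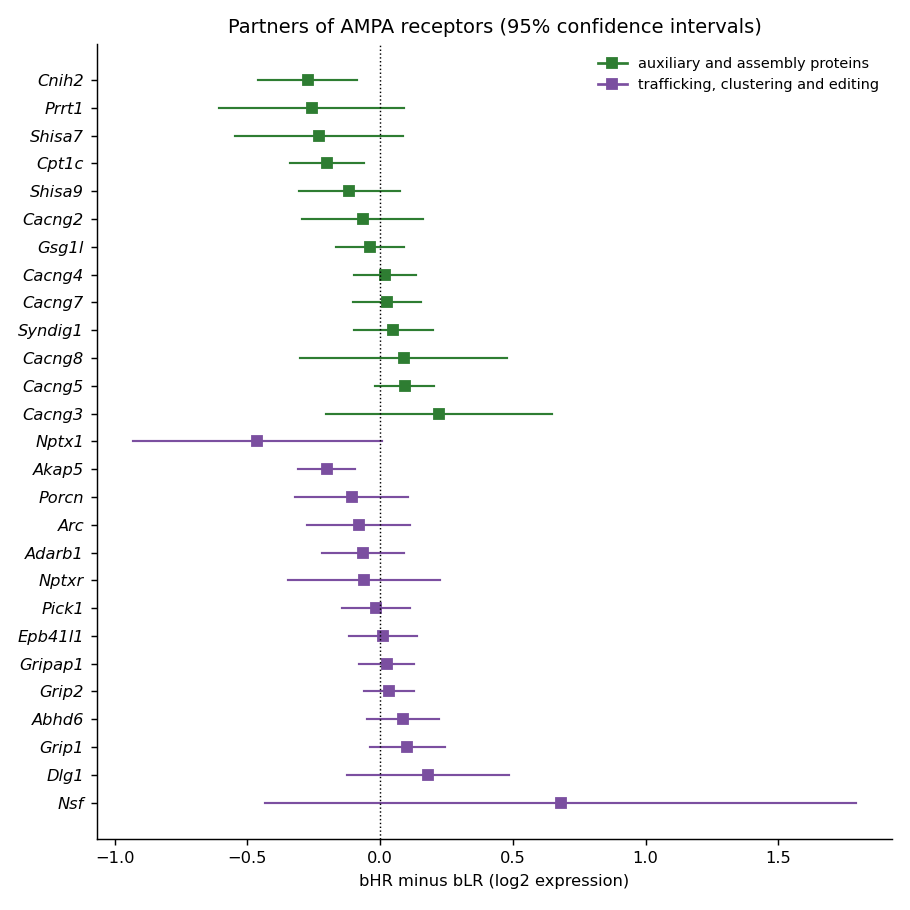
Difference between bHR and bLR in log2 expression (horizontal axis) with its 95% confidence interval for 13 auxiliary and assembly genes (green) and 14 trafficking, clustering and editing genes (purple) of AMPA receptors. The intervals of Cnih2, Cpt1c and Akap5 lie below 0 before adjustment for 9962 genes; 0 of the 27 pass after it.

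Other glutamate receptors served as a scale for these differences. The median size of the difference, without regard to sign, was 0.044 for the 8 AMPA and kainate subunits, 0.071 for 7 NMDA receptor subunits, 0.039 for 8 metabotropic receptors and 0.041 for all genes. The widest NMDA difference was 0.16, for Grin2a (SE 0.14), and the widest metabotropic one 0.27, for Grm7 (SE 0.13); 0 genes of either family passed the adjusted test by limma, and 0 had an unadjusted p under 0.05, beside 0% and 2.94% of all genes; with 15 genes in both families, 0 is near that share. The median SD over the 10 arrays was 0.099 for the 8 subunits and 0.096 for all genes. Whether the families differ from each other was not tested.

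Likeness of pattern was measured as Pearson's r of log2 values, centred within line, over the 10 arrays, and the 2 most similar genes were read for each subunit. All 10 arrays share the same gradients of 5' loss and choroid RNA, and with 9962 genes to choose from some r near 1 arises, so these are descriptions. Gria1 was most like Pola2 (r = 0.979) and Rhag (0.929), Gria2 like Serinc5 (0.938) and Suclg1 (0.906), and Gria3 like Stxbp5 (0.957) and Ttc9 (0.956). Gria4 was most like G6pc3 (0.932) and Ikbkb (0.906). For the kainate subunits the genes were Gipc1 (0.881) and Mettl16 (0.863) for Grik1, Srd5a1 (0.956) and RT1-M4 (0.949) for Grik3, Sipa1 (0.911) and Pcyt2 (0.868) for Grik4, and Kcnv1 (0.888) and Neu3 (0.871) for Grik5. Another member was in no case among the 2 most similar genes.

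The failed arrays gave a different profile of the same subunits, and the signal of all genes was narrower there. The SD over all genes was 0.84 on bHR replicate 1 and 1.02 on bLR replicate 5, against 1.34 to 1.41 on passing arrays. Neuronal Snap25 read 8.70 and 10.78, against 11.62 to 11.80. The shifts below are thus not particular to these subunits. Gria2 read 7.14 on bHR replicate 1 and 8.72 on bLR replicate 5, against 9.91 to 10.11 on the 10 arrays that passed. Gria3 read 4.99 on bHR replicate 1 and 5.26 on bLR replicate 5, below all passing arrays, whose lowest value was 6.19. Gria4, Grik3 and Grik5 moved the other way and stood above every passing array on both failed ones: Gria4 at 5.499 on bHR replicate 1 and 5.78 on bLR replicate 5, Grik3 at 5.85 and 5.44, and Grik5 at 6.32 and 6.54. Gria1, at 6.26 and 6.30, stayed within the passing range. Gria2 was still the highest and Grik1 the lowest of the 8 on both arrays. With both included, the Gria2 difference was -0.30, over 6 times the value from 10 arrays, at an adjusted p of 1 by limma.

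**Figure D5:**
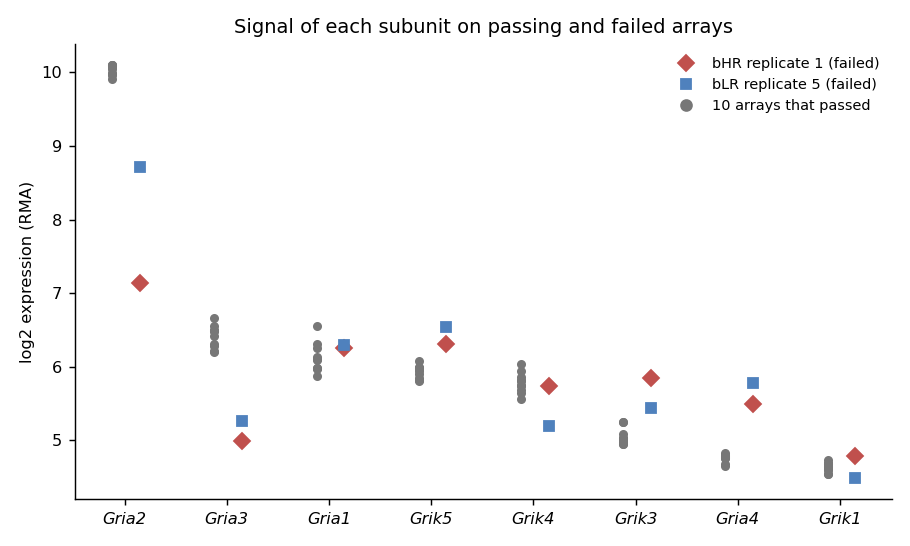
Log2 expression (vertical axis) of the 8 subunits on the 10 arrays that passed quality control (grey), on the failed bHR replicate 1 (diamonds) and on the failed bLR replicate 5 (squares). On the failed arrays Gria2 and Gria3 lie below all passing arrays, and Gria4, Grik3 and Grik5 lie above them.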

How the data were processed

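RNA of 12 hippocampi was hybridised to Affymetrix RAE230A arrays, 1 rat per array. The authors deposited RMA values on the log2 scale. Affy 1.54.0 is named for this step per the submitters' processing notes; per the labels' design text, probes were assigned to Entrez genes with a custom definition (version 19.0.0). The genome build is not given in the sources used here, so no coordinates are printed. Of 10019 probe sets 57 were controls, and 9962 were tested. The RefSeq gene table of assembly GRCr8 named 9831.

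Line was taken from the labels and replicates were numbered in accession order. Genes were fitted with limma 3.58.1 in R 4.3.3 (lmFit, eBayes, Benjamini-Hochberg over 9962 genes), with line as the term, or line and the locomotor score centred within line. Arrays have no read depth. The members and lists were chosen with earlier results of these data known. Genes named are all members, up to 4 partners per list with the smallest p, and the 2 genes most like each member; Pvalb, Cacng2, Grin2a, Grm7 and the markers were chosen after their values were seen. The steps were tested on simulated data. Alternatives were all 12 arrays, each array left out, the 3 5'-depleted arrays left out, 2 normalizations, 2 covariates, another prior, a filter on low signal and a block.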

Additional observations from a re-analysis of the deposited data

Results flagged for a closer look

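One value stood far from the rest of its line. The within-array log2 ratio of Grik4 to Grik5 was 0.042 on bHR replicate 2, while the other 4 bHR arrays lay between -0.26 and -0.21; the gap to its nearest neighbour was 0.841 of the whole bHR range. The 10 arrays gave 44 such line groups of 5 (8 subunits, 8 partner genes and 6 ratios in both lines), of which this was the only one past the limit of 0.71, and chance passes about 1 in 20. On bHR replicate 2 Grik4 was the highest of its line and Grik5 the second lowest.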

How the results depend on the processing

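Under all alternatives run, 0 of the genes that each tested, subunits and partner genes included, 0 ratios and 0 slopes of subunits passed an adjusted p of 0.05. Genes at an unadjusted p under 0.05 by limma numbered 293, but 42 with all 12 arrays, 1468 with the title number as a replicate block, and from 181 (bHR replicate 4 omitted) to 604 (bHR replicate 6 omitted) with 1 array left out. Signs of small differences were not stable. Gria3 differed by 0.090 under the replicate block and by -0.063 to 0.053 with 1 array left out. Grik4 differed by 0.070 with all 12 arrays, 0.069 with the Ttr covariate, 0.093 under the replicate block, and -0.065 to 0.036 with 1 array left out. Gria1 ran from -0.049 to 0.12 with 1 array left out. Grik5 differed by -0.0060 with all 12 arrays, and Grik1 by -0.012 when the 5'-depleted arrays were left out. The 8 partner genes named for their small p kept the sign of their difference in every alternative that tested them. Of the ratios, Gria3 against Gria2 differed by -0.082 and Grik1 against Grik5 by -0.042 without those 3 arrays, and Grik4 against Grik5 by 0.076 with all 12. With 1 array left out these ratios ran from -0.020 to 0.091, from -0.046 to 0.058 and from -0.12 to -0.016, and Grik3 against Grik5 from -0.0030 to 0.098. The Grik5 slope ran from -0.050 to 0.012 with 1 array left out. The cause of these changes was not tested. The subunits Gria4 and Grik1 and, of the partner genes named, Akap5, Cacng5 and Grip1 were not tested with the lowest 25% of genes left out, which removes them. The labels do not say what the numbers in the sample titles mark. Deviations of the 3 same-numbered pairs of arrays correlated by -0.334, 0.263 and 0.409, too few values to settle whether the arrays are paired. The main fit did not treat them as paired. Under the replicate block the line difference came from these 3 pairs alone, since the other arrays that passed share no number. Values under the block are therefore not those of all 10 arrays.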

Other observations

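Among the 28 pairs of subunits, the closest likeness over the 10 arrays was between Gria3 and Grik1, whose log2 values centred within line had a Pearson r of 0.772, and 0.690 after the beta-actin 5' minus 3' value was taken out as well. Without that covariate Gria1 and Gria4 followed with 0.647, and the other 26 pairs lay between -0.339 and 0.395. With it, Gria2 and Gria3 (0.595) and Gria1 and Gria4 (0.589) came next. Grik1 and Gria4 lay above only 14.8% and 21.7% of genes, where low expression and background cannot be told apart. This limits every pair that holds either of them. Grik1 and Grik5, which can share a receptor, had the lowest r without the covariate, -0.339, and -0.389 with it, where Grik1 and Grik4 were lowest at -0.464. These are descriptions over arrays that share the same gradients of 5' loss and choroid RNA, and the pairs were read after their values were seen.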
